A study of Mus musculus with 5 samples.

Results

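The replication-dependent histone cluster genes were examined in RNA from sorted mouse spleen T cells. Members were the genes whose symbol begins with Hist1h, Hist2h, Hist3h or Hist4h and whose deposited value was above 0 in at least 1 library, so they were chosen by symbol and by detection and not by a difference between groups, although the set was proposed with results of these data known. That gave 66 of the 70 such genes listed, out of 35275 genes in all. Hist1h2ba, Hist1h2aa, Hist2h2aa2 and Hist2h3c1 were listed at 0 in every library. Closest to them, Hist1h1t reached at most 1.88 RPKM (reads normalised for gene length and for sequencing depth) and Hist1h2br at most 0.49 RPKM. Members numbered 6 of class H1, 18 of H2A, 18 of H2B, 11 of H3 and 13 of H4, and 2 of the 66 were annotated as pseudogenes. There were 2 libraries of CD4 Treg (CD4+ regulatory T cells), 1 of CD8 Treg (CD8+ regulatory T cells) and 2 of a population labelled CD49lo. All came from wild-type C57BL/6 spleens at 3 months of age, after CD8 enrichment and a flow cytometry sort whose markers the labels do not give. CD49lo is the CD8+ effector-like population named in the series design only by elimination. The labels do not say whether the 2 replicates of a group came from separate animals, so p-values here describe the scatter of these samples alone, and that scatter may be technical.

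Nucleosomes wrap DNA around the core histones H2A, H2B, H3 and H4, and the linker histone H1 binds where the DNA enters and leaves. Cells make most of this protein during S phase, when the new DNA needs it, from genes that stand in clusters and mostly lack introns. Their mRNAs usually end not in a poly(A) tail but in a short stem-loop, which the stem-loop binding protein Slbp recognises and beyond which the U7 small nuclear ribonucleoprotein directs the cut. Outside S phase these mRNAs are degraded quickly, while the replication-independent histones, such as those encoded by H3f3a and H3f3b, are made at any time from ordinary polyadenylated mRNAs. Some cluster genes can also give polyadenylated transcripts, and a library made by poly(A) selection holds those and few of the others. The labels do not say whether these libraries were made by poly(A) selection.

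The stem-loop is shown because it defines this class of mRNA. A perfect stem-loop of 16 bases was searched for on the sense strand within 100 bases after the stop codon in GENCODE M21 transcripts. It was found in 44 of 66 members. Of the 46 members with at least 60 annotated bases after the stop codon, 42 held it (91.3%), against 7 of 20676 other genes (0.0339%). The match began 22 to 59 bases after the stop codon, with a median of 32. The 8 distinct sequences split by class: all 32 matches outside H4 had the stem GGCTCT, while the 12 in H4 had GGCCCT (10 members) or GGTCCT (2 members). The commonest was shared by 24 members. In the following 5 examples the capitals mark the stem-loop and the small letters its neighbours.
Hist1h1c: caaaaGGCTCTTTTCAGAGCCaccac
Hist1h3b: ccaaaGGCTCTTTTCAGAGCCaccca
Hist1h3g: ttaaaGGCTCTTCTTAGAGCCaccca
Hist1h2bm: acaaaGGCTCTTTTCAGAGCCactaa
Hist1h4d: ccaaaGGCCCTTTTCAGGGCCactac
Hist1h1c and Hist1h3b carry the same 16 bases, although their differences between groups, given below, were of very different size.

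Promoters were matched for 57 of 66 members in RefSeq annotation of GRCm38.p6 and read from 250 bases before to 50 bases after the transcription start. The letters CCAAT, on either strand, occurred in 48 of the 57 (84.2%), against 37.9% of all gene promoters of the same length. All 45 matched members outside H4 held them, and 3 of 12 H4 members did. The letters TATAAA, on either strand, occurred in 32 of 57 (56.1%), against 14.2% of all gene promoters. Where they lay on the sense strand before the start, in 23 members, the nearest match began at a median of 33 bases before it. The octamer ATTTGCAT, on either strand, occurred in 11 members (19.3%), all of class H2A or H2B, against 1.75% of all promoters. Many H2A and H2B genes stand back to back, so their promoter windows overlap and 1 site can be counted for both genes. The octamer of Hist1h2ae is also that of Hist1h2bg, and the octamer of Hist1h2ah that of Hist1h2bk. These motif counts are therefore not counts of separate promoters. A match is a description of letters and not of a bound site. The 160 bases before the start of 4 members that differed strongly or weakly between groups are shown with these motifs in capitals. They lie at chr13:21780626-21780785 (minus strand, Hist1h1b), chr13:23752185-23752344 (plus strand, Hist1h3b), chr13:22035644-22035803 (minus strand, Hist1h2ah) and chr13:23581408-23581567 (plus strand, Hist1h4d).
Hist1h1b: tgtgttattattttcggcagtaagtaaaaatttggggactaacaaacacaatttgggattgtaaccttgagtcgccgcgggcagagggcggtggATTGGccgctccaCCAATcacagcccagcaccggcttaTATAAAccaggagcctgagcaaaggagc
Hist1h3b: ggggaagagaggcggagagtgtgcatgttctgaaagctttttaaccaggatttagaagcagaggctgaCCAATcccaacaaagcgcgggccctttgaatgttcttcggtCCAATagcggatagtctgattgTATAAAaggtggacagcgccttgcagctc
Hist1h2ah: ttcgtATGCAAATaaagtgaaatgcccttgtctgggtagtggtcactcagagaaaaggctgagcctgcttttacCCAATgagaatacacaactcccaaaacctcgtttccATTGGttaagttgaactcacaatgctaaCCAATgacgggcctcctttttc
Hist1h4d: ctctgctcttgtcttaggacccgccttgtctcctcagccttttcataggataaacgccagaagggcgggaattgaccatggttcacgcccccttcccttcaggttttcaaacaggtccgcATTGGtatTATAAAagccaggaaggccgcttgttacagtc
ATTGG and ATGCAAAT are the same motifs read on the opposite strand. The stretches stop at the annotated start. Hist1h2ah holds a TATAAA after that start, within the 50 bases read there, which the stretch shown leaves out.

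Reads in genes, recovered from the deposited values, numbered 5441444 to 8354971 per library, and 3 reads, the upper limit that a count of 0 allows for counting error alone, equal 0.359 to 0.551 RPM (reads normalised for depth alone). The labels held for lineage: Foxp3 was at 146 RPKM in each CD4 Treg library and at most 1.66 elsewhere, and Cd8a was at 187 to 255 RPKM in the CD8 Treg and CD49lo libraries and at most 0.412 in CD4 Treg. Markers of other cell types moved with the groups. The summed level of 17 B cell genes (16 symbols, with Cr2 listed under 2 gene IDs) was 108 and 109 RPM in CD4 Treg, 928 in CD8 Treg and 1805 and 2047 in CD49lo, with all 17 lower in CD4 Treg than in CD49lo. The Cr2 entry with more reads had 7 and 3 reads in CD4 Treg, and the other had 0 in both libraries. Myeloid genes summed to 7.35 and 30.6 RPM in CD4 Treg, 864 in CD8 Treg and 976 and 1096 in CD49lo, with 11 of 12 tested lower in CD4 Treg and Elane at 0 there. Lower in CD4 Treg than in CD49lo were also 9 of 12 natural killer cell genes (2 were higher), 9 of 13 dendritic cell genes, 3 of 9 erythroid and platelet genes and 3 of 6 plasma cell genes. Of all genes tested 12.8% were lower and 9.41% higher in CD4 Treg. At 0 in both CD4 Treg libraries were Ncr1, Klrd1, Xcr1, Cd209a, Clec10a, Batf3, Klf1, Epor, Mzb1 and Tnfrsf17. The X-linked RNA Xist stood at 35.5 and 27.2 RPKM in CD4 Treg and at most 0.0834 elsewhere, and the Y-linked Ddx3y at most 0.0701 in CD4 Treg and 18.3 to 27.4 elsewhere. The part of these differences in the histone results was not tested, and the difference that Xist and Ddx3y mark cannot be told apart from CD4 Treg as a group. In bulk samples, fewer cells of a kind and less RNA per cell cannot be told apart either.

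Histone cluster mRNA was several times more abundant in CD49lo than in either Treg population. The 66 members together held 2703 and 2461 RPM in the CD4 Treg libraries, 2824 RPM in the CD8 Treg library, and 11948 and 10315 RPM in the CD49lo libraries. The groups did not overlap, and the mean of CD49lo was 4.31 times that of CD4 Treg (11132 ± 1155 against 2582 ± 171 RPM, SD, n = 2 each) and 3.94 times the CD8 Treg value. Every member was above 0 in both CD49lo libraries, and 63, 65 and 64 were in CD4 Treg replicates 1 and 2 and CD8 Treg. The median member stood at 24.2 and 24.0 RPKM in CD4 Treg, at 33.6 in CD8 Treg, and at 190 and 136 in CD49lo. A few genes carried more of the total in the Tregs. The 6 highest members made up 47.4%, 46.4% and 45.4% of summed RPKM in CD4 Treg replicates 1 and 2 and CD8 Treg, and 32.4% and 34.8% in CD49lo. CD49lo replicate 1 was above replicate 2 in 56 of the 66 members.

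**Figure D1:**
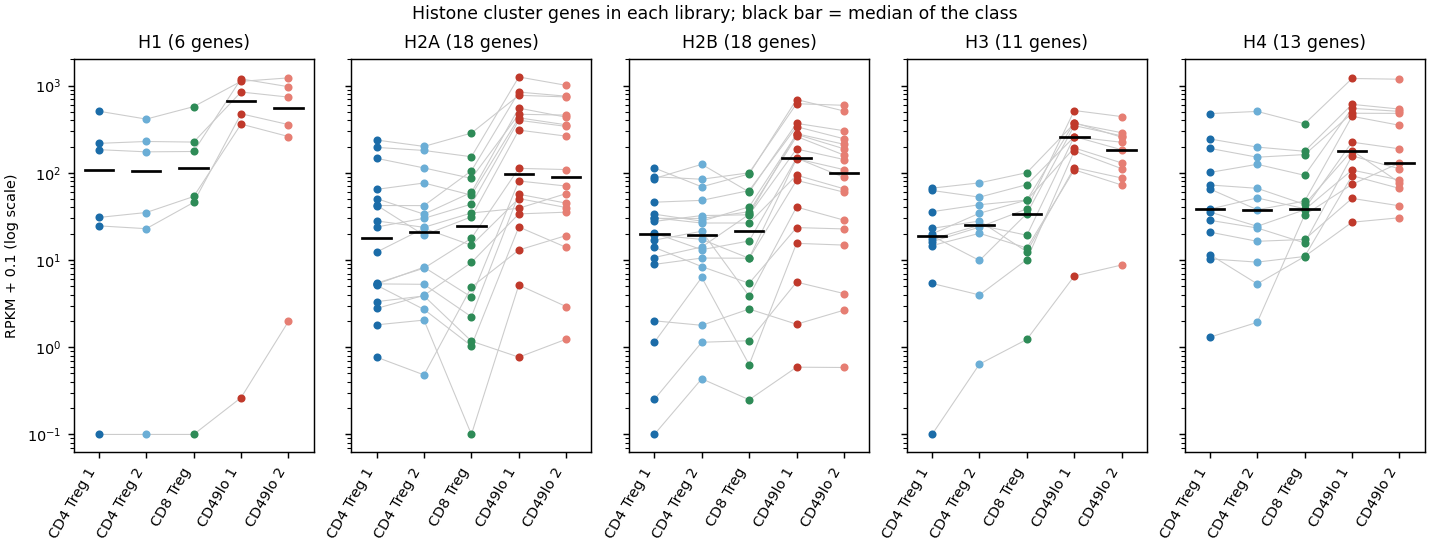
RPKM of each histone cluster member plus 0.1 on a log axis, by library and class, with grey lines joining a gene across libraries and black bars at the class median. The 2 CD49lo libraries stand above the 3 Treg libraries for nearly all genes of every class, and several of the genes highest in the Tregs, such as Hist1h1c and Hist1h4d, differ less than most of their class.

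CD4 Treg was compared with CD49lo in a linear model fitted to all 13298 genes tested. Of the 64 members tested, 57 were lower in CD4 Treg at an adjusted p under 0.05, against 12.8% of all genes tested, and 1, Hist3h2a, was higher, against 9.41% of all genes (22.2% in either direction). Hist1h2al, Hist2h2ab, Hist2h2be, Hist3h2ba, Hist3h2bb-ps and Hist1h4n did not pass. The median log2 fold change of the tested members was -2.42, that of all genes -0.03. Fold changes here are CD4 Treg minus CD49lo on the log2(RPKM + 0.5) scale, which understates the change of low genes. In 64 of the 66 members both CD4 Treg values lay below both CD49lo values, as was the case for 33.7% of all genes tested. The exceptions were Hist3h2a and Hist2h2be. Hist1h1t and Hist1h2br were too low to test, and Hist1h2al and Hist2h3c2 passed the read filter only through CD49lo. With 1 CD49lo library left out, the calls depended on how genes with no residual spread were handled. The median log2 fold change of the members was -2.25 without CD49lo replicate 1 and -2.62 without replicate 2. Without CD49lo replicate 1 or 2 limma called 0 members, and 0 genes in all, with 54 and 56 members lower at an unadjusted p under 0.05. When genes with no residual spread were left out of those fits, 58 and 59 members were called lower, an alternative added after the data were seen. With no filter beyond 1 read 29 were called lower, and 53 when such genes were left out.

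**Figure D2:**
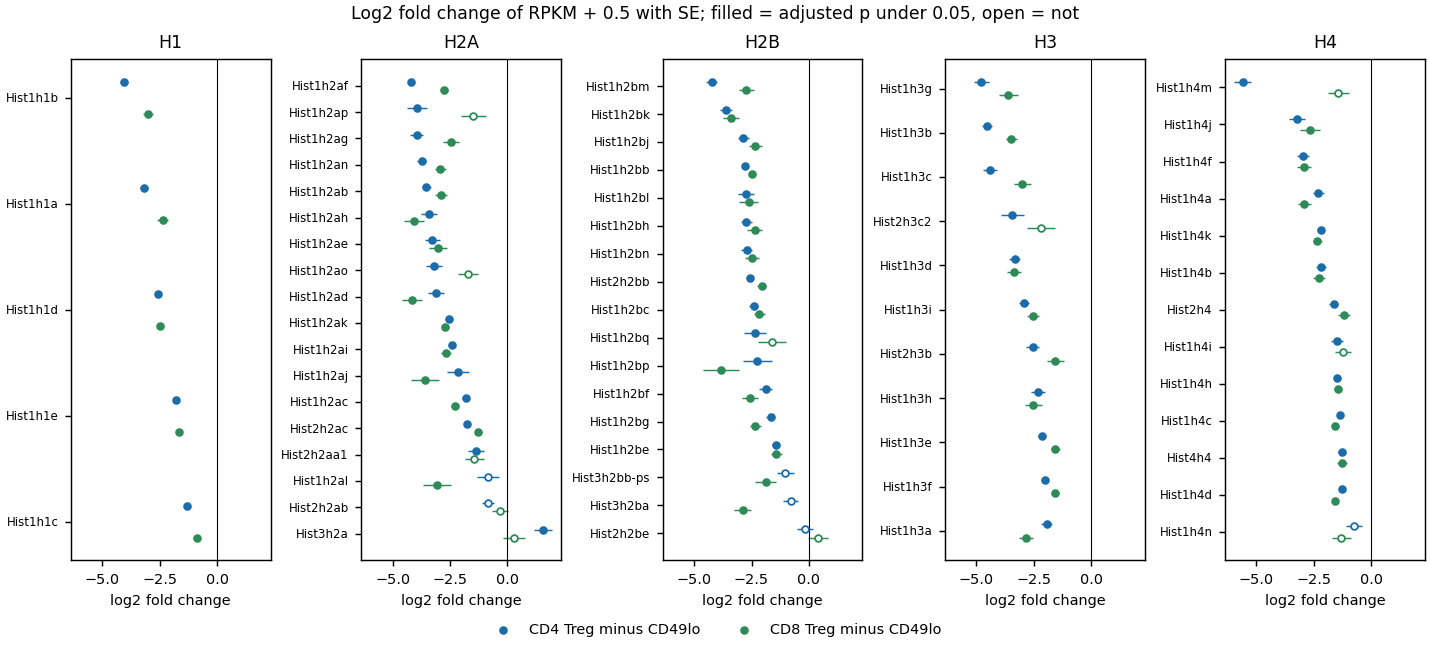
Log2 fold change with its standard error for the 64 members tested, by class, in CD4 Treg (blue) and in CD8 Treg (green) against CD49lo; filled points have an adjusted p under 0.05 and open points do not. Almost all points lie left of 0, from -5.59 for Hist1h4m to 1.54 for Hist3h2a, and both comparisons share the CD49lo libraries.

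All 5 tested linker histone genes were lower in CD4 Treg than in CD49lo, by very different amounts. Hist1h1c (chr13:23738808-23740367, mm10) stood at 508 and 412 RPKM in CD4 Treg, at 573 in CD8 Treg, and at 1117 and 1224 in CD49lo. It was among the 2 highest members in each Treg library and changed least of the class, with a log2 fold change of -1.33 ± 0.12 (SE, adjusted p = 5.48e-05 by limma). Hist1h1b (chr13:21779883-21780625) stood at 24.5 and 22.8 RPKM in CD4 Treg, at 45.7 in CD8 Treg, and at 474 and 357 in CD49lo. Its mean in CD49lo was 17.6 times that in CD4 Treg, and its log2 fold change was -4.07 ± 0.17 (adjusted p = 9.79e-07). Hist1h1a was at 30.6 and 34.9 RPKM in CD4 Treg, at 53.3 in CD8 Treg, and at 361 and 260 in CD49lo. With the libraries in that order, Hist1h1d stood at 184 and 174, 175, and 1191 and 970 RPKM, and Hist1h1e at 217 and 228, 225, and 843 and 737. In all 5 genes the CD8 Treg value lay nearer to the CD4 Treg than to the CD49lo values. Hist1h1t, the testis linker histone, had 0 reads in the 3 Treg libraries and 1 and 9 reads in CD49lo.

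Of 18 H2A genes 15 were lower in CD4 Treg and 1 was higher, with a median log2 fold change of -2.84. Hist1h2ak (chr13:21753435-21753827) was the highest of the class in both CD49lo libraries, at 195 and 180 RPKM in CD4 Treg, at 153 in CD8 Treg, and at 1254 and 1005 in CD49lo. Hist2h2ac stood at 237 and 200 RPKM in CD4 Treg, at 285 in CD8 Treg, and at 773 and 740 in CD49lo. Hist1h2af (chr13:23533906-23534304) stood at 42.0 and 41.9 RPKM in CD4 Treg, at 105 in CD8 Treg, and at 842 and 755 in CD49lo. Thus Hist2h2ac was above Hist1h2ak and Hist1h2af in CD4 Treg and CD8 Treg and below both in the CD49lo libraries. The log2 fold changes of Hist1h2ak, Hist2h2ac and Hist1h2af were -2.55 ± 0.14, -1.77 ± 0.12 and -4.20 ± 0.14. Lower members moved as far: Hist1h2ag was at 5.32 and 7.96 RPKM in CD4 Treg, at 17.7 in CD8 Treg, and at 112 and 109 in CD49lo, a log2 fold change of -3.96 ± 0.29.

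In H2B, 14 of 17 tested genes were lower in CD4 Treg and 3 did not pass, with a median log2 fold change of -2.40. Hist1h2bb stood at 89.9 and 84.2 RPKM in CD4 Treg, at 99.8 in CD8 Treg, and at 619 and 594 in CD49lo. Hist1h2bn was at 113 and 69.0, 96.8, and 691 and 511 RPKM with libraries ordered likewise, and Hist1h2bg at 85.8 and 125, 60.1, and 369 and 303. In none of these did the CD49lo range meet that of the other libraries. The steepest H2B difference was that of Hist1h2bm (chr13:21722098-21722478), at 10.6 and 13.99 RPKM in CD4 Treg, at 33.3 in CD8 Treg, and at 281 and 212 in CD49lo, with a log2 fold change of -4.24 ± 0.25 (adjusted p = 5.91e-06 by limma). Hist1h2be, whose gene model is long, was at 30.3 and 26.4, 26.5, and 93.7 and 65.4 RPKM and had the smallest called H2B change, -1.42 ± 0.18.

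H3 was the class with the largest rise from CD4 Treg to CD49lo, and all 11 of its genes were called. Hist1h3b (chr13:23752267-23752886) stood at 16.1 and 23.7 RPKM in CD4 Treg, at 38.5 in CD8 Treg, and at 517 and 441 in CD49lo. Its CD49lo mean was 24.0 times its CD4 Treg mean, with a log2 fold change of -4.55 ± 0.20 (adjusted p = 1.12e-06). Hist1h3g (chr13:23535434-23535860) stood at 5.29 and 3.87 RPKM in CD4 Treg, at 10.03 in CD8 Treg, and at 177 and 111 in CD49lo, a ratio of means of 31.5 and a log2 fold change of -4.78 ± 0.34. Hist1h3c was at 18.8 and 9.77, 34.0, and 347 and 265 RPKM with libraries ordered likewise. For these 3 genes the CD8 Treg value was above both CD4 Treg values and far below both CD49lo values. Hist1h3e, the highest H3 gene in the Tregs, changed less: it was at 66.5 and 76.5 RPKM in CD4 Treg, at 100.3 in CD8 Treg, and at 368 and 288 in CD49lo, a log2 fold change of -2.15 ± 0.15. Hist1h3i was at 35.7 and 42.9, 48.5, and 376 and 255 RPKM.

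H4 genes were already abundant in the Tregs and changed least as a class between CD4 Treg and CD49lo, with 12 of 13 called lower and a median log2 fold change of -1.64. Hist1h4d (chr13:23581598-23581990) stood at 477 and 505 RPKM in CD4 Treg, at 365 in CD8 Treg, and at 1204 and 1182 in CD49lo. Its ratio of means was 2.43, and its log2 fold change of -1.25 ± 0.10 was the smallest of any called member (adjusted p = 3.19e-05 by limma). Hist1h4c was at 244 and 197, 176, and 609 and 537 RPKM, and Hist1h4h at 190 and 151, 162, and 481 and 480. For all 3 the CD49lo libraries stood above the rest by 2-fold or more. Summed over a class, CD49lo exceeded CD4 Treg 3.14-fold for H4, 3.53-fold for H1, 5.24-fold for H2B, 5.88-fold for H2A and 7.38-fold for H3, in RPM. The H1 ratio was 5.63 without Hist1h1c, its gene with the most reads. Against CD8 Treg the class ratios were 2.96 for H1, 3.59 for H4, 5.13 for H2B, 5.35 for H2A and 5.49 for H3. By that measure H1 changed least there. H4 held 23.2% (exact 95% binomial interval 22.5 to 23.8) and 22.8% (22.1 to 23.5) of member reads in CD4 Treg, 18.4% (17.8 to 19.0) in CD8 Treg, and 16.6% (16.3 to 16.8) and 16.9% (16.6 to 17.2) in CD49lo. H3 held 6.75%, 8.19%, 9.14%, 13.4% and 11.98%, by library as listed for H4. The H4 share was thus lower, and the H3 share higher, in CD8 Treg, a single library, than in both CD4 Treg libraries. Both CD49lo libraries lay further in the same direction. Counting intervals do not measure the spread between libraries. The CD4 Treg replicates themselves differed in H3 share beyond them, at 6.75% (6.37 to 7.14) and 8.19% (7.73 to 8.67).

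**Figure D3:**
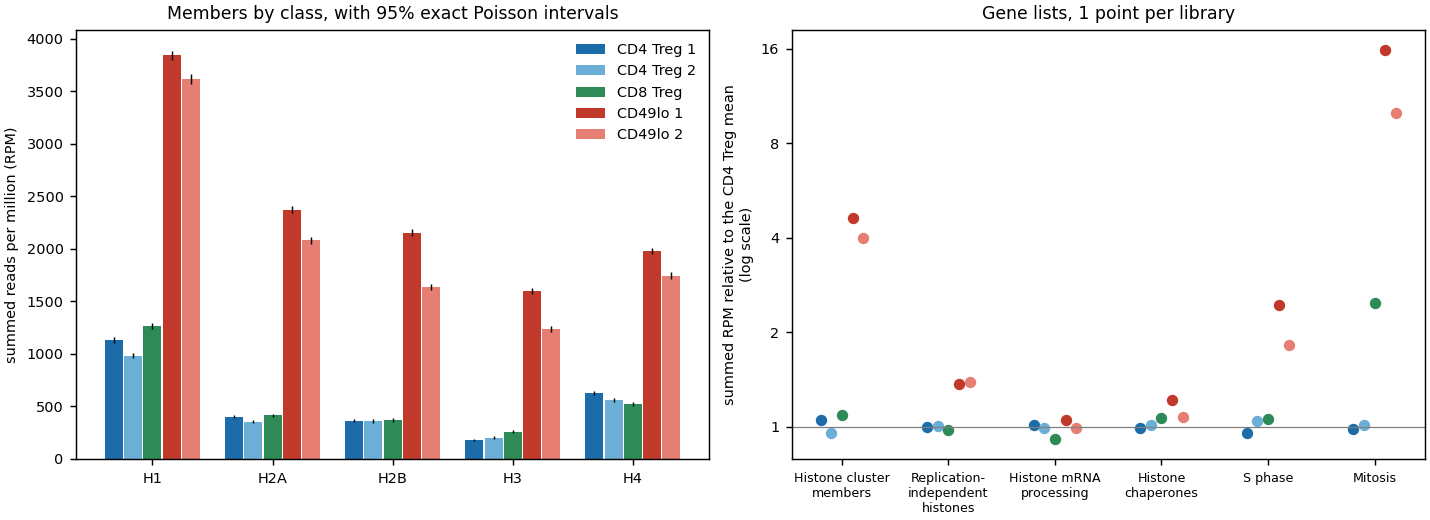
Left, summed RPM of the members of each class by library, with exact 95% Poisson intervals for counting error; right, summed RPM of the members and of 5 gene lists relative to the CD4 Treg mean, on a log axis. The CD49lo libraries stand above the Tregs in every class, and the members lie between the S phase and the mitosis genes in their CD49lo to CD4 Treg ratio.

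The largest difference between CD4 Treg and CD49lo belonged to 1 of a pair of near-identical genes. Hist1h4m (chr13:21811746-21812147) was listed at 1.20 and 1.83 RPKM in CD4 Treg, at 32.8 in CD8 Treg, and at 73.5 and 129 in CD49lo, a log2 fold change of -5.59 ± 0.38 against CD49lo. Hist1h4n (chr13:21831767-21832196), chosen for description after its values were seen, was listed at 72.4 and 66.2, 43.3, and 180 and 77.2 RPKM with libraries ordered likewise. Hist1h4n was above Hist1h4m in 4 of the 5 libraries, by far the most in CD4 Treg, and below it in CD49lo replicate 2. They share 89.8% of the 50-base stretches of Hist1h4m and 83.2% of those of Hist1h4n. Summed, the pair held 31.6 and 29.2 RPM in CD4 Treg, 31.8 in CD8 Treg, and 107 and 85.2 in CD49lo. That sum shows no step between CD4 Treg and CD8 Treg, while Hist1h4m alone was called 4.17 ± 0.46 higher in CD8 Treg on the log2 scale (adjusted p = 3.28e-04 by limma). How the authors counted reads that map to several genes is not given in the sources used here, so single values of such copies are uncertain. Hist1h2ao and Hist1h2ap share 93.5% of the stretches of Hist1h2ao and summed to 1.61 and 2.02 RPM in CD4 Treg, 6.75 in CD8 Treg, and 22.4 and 26.0 in CD49lo. For this pair the sum and both parts put the groups in the same order. Such sharing was common: 31 of the 66 members share more than 50% of their 50-base stretches with another gene. Of those tested, 28 of 30 were lower in CD4 Treg, and of the rest 29 of 34 were lower and 1 was higher.

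**Figure D4:**
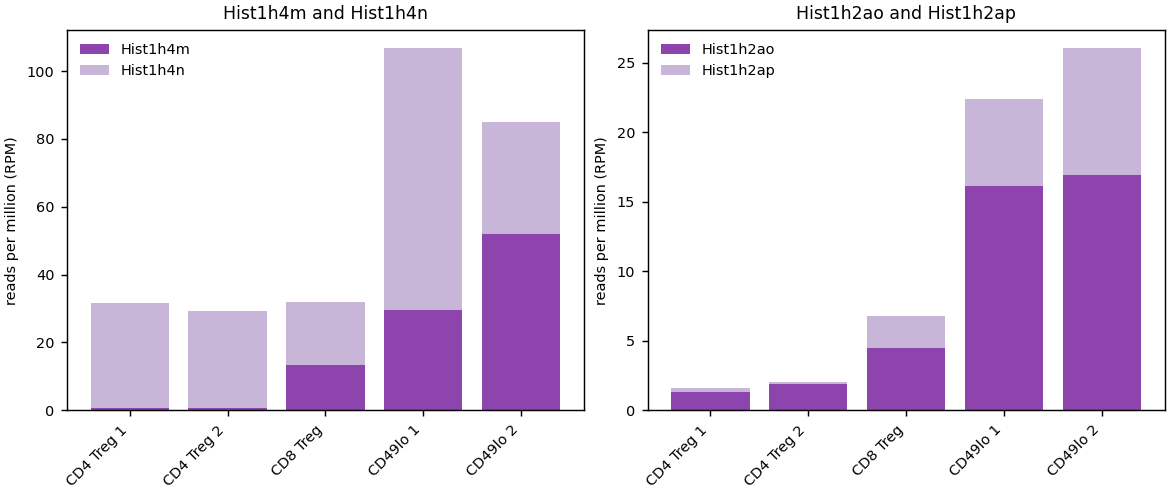
RPM assigned to each gene of 2 near-identical pairs, stacked, by library. Hist1h4m takes a small part of its pair in CD4 Treg and a larger part elsewhere while the pair's sum stays between 29.2 and 31.8 RPM in the Tregs; Hist1h2ao and Hist1h2ap are both highest in CD49lo.

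By position, the difference was most uniform in the main Hist1 cluster on chromosome 13. All 28 tested members at chr13:23531050-23764358 were lower in CD4 Treg, with a median log2 fold change of -2.36. At chr13:21715763-22043676, the other block of Hist1 genes, 22 of 23 were lower, with a median of -2.85, and Hist1h4n was the exception. Hist1h2al stands alone at chr13:51202688-51203065 and had 4 and 4 reads in CD4 Treg, 0 in CD8 Treg, and 16 and 7 in CD49lo. Summed RPM was 3.96 times higher in CD49lo than in CD4 Treg for the main block and 7.21 times for the other, which held less in CD4 Treg (309 against 1922 RPM). Hist1h1c weighs on the main-block sum. It held 4914 of 12538 and 3500 of 9914 reads there in CD4 Treg, and 14561 of 67063 and 12532 of 47172 in CD49lo.

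The small clusters behaved less uniformly. In Hist2 (chr3:96219865-96279001) 6 of 8 members were lower in CD4 Treg, with a median log2 fold change of -1.70. Hist2h2bb was at 45.9 and 48.2 RPKM in CD4 Treg, at 62.4 in CD8 Treg, and at 337 and 245 in CD49lo, Hist2h3b at 19.8 and 34.3, 48.6, and 193 and 130, and Hist2h4 at 35.4 and 24.2, 37.6, and 107 and 82.5. Those 3 were called lower in CD4 Treg. Hist2h2aa1, at 12.2 and 23.0, 14.7, and 50.6 and 39.8 RPKM, and Hist2h3c2, at 0 and 0.541, 1.13, and 6.45 and 8.66, were also called lower. All (100%) of the 50-base stretches of Hist2h2aa1 are shared with Hist2h2aa2, which was listed at 0 in every library. The single values of both genes, that 0 included, are therefore uncertain. Hist2h2ab was at 27.96 and 23.6 RPKM in CD4 Treg, at 34.5 in CD8 Treg, and at 39.1 and 57.6 in CD49lo, and did not pass (adjusted p = 0.0531 by limma). Hist2h2be was at 1.91 and 1.68, 2.64, and 1.74 and 2.56 RPKM, so that its groups overlapped. Its log2 fold change was -0.17 ± 0.35.

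Hist3 (chr11:58948920-58956830) held the only member called in the other direction. Hist3h2a (chr11:58954685-58956830) was at 3.23 and 3.77 RPKM in CD4 Treg, at 1.07 in CD8 Treg, and at 0.669 and 1.14 in CD49lo, a log2 fold change of 1.54 ± 0.39 (adjusted p = 0.0193 by limma). The call was lost without CD4 Treg replicate 1 (log2 fold change 1.64, adjusted p = 0.115 by limma) or replicate 2 (1.45, adjusted p = 0.165). It was also lost without CD49lo replicate 1 (1.31) or replicate 2 (1.77), where limma called 0 genes in all. With genes of no residual spread left out of those fits it was called, at adjusted p = 0.0475 and 0.00581. With no filter beyond 1 read it was lost (adjusted p = 0.102, and 0.0623 with such genes left out). Of its 50-base stretches 31.5% are shared with Trim17, which overlaps it. Hist3h2ba was at 16.8 and 21.3 RPKM in CD4 Treg, at 3.75 in CD8 Treg, and at 40.4 and 28.5 in CD49lo, and Hist3h2bb-ps, a pseudogene, at 13.9 and 8.30, 5.31, and 23.4 and 22.6. For both, the CD8 Treg library was the lowest of the 5. Hist4h4, the only member on chromosome 6 (chr6:136801553-136804431), was at 20.8 and 16.3 RPKM in CD4 Treg, at 17.1 in CD8 Treg, and at 50.8 and 41.7 in CD49lo, a log2 fold change of -1.27 ± 0.17.

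Many H2A and H2B genes stand back to back, and partners often differed in level. There were 13 divergent pairs of an H2A and an H2B gene, 11 of them on chromosome 13, with 173 to 302 bases between their starts (median 274). In 12 pairs both genes were tested, and in 11 of these both log2 fold changes against CD49lo were negative. The partners' log2 fold changes differed by a median of 1.17. Hist1h2ak and Hist1h2bn differed by 0.16, at -2.55 and -2.71, and were both abundant. Hist1h2aj and Hist1h2bm differed by 2.10, at -2.14 and -4.24, with Hist1h2aj at 5.04 and 2.61 RPKM in CD4 Treg, at 0.936 in CD8 Treg, and at 23.8 and 13.8 in CD49lo. Hist1h2an, at 23.8 and 29.9, 43.6, and 399.6 and 340 RPKM, stands beside Hist1h2bp, at 1.04 and 6.21, 0.530, and 15.4 and 14.7 RPKM. A shared start region thus went with RPKM values that differed more than 20-fold in CD49lo for that pair. RPKM divides by the deposited gene length, here 393 and 621 bases. Reads in CD49lo were 1312 and 877 for Hist1h2an and 80 and 60 for Hist1h2bp. Other genes share 85.8% of the 50-base stretches of Hist1h2an and 44.1% of those of Hist1h2bp, so these single values are uncertain.

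Members with long gene models differed less, as a group, than the others. The deposited gene length was above 1000 bases for 10 members, among them Hist1h1c, Hist1h2be, Hist2h2be, Hist2h4, Hist3h2a and Hist4h4. The split was chosen after the values were seen and is a description, and Hist2h3c2 and Hist2h2bb, also long, differed by -3.44 and -2.57. Of 9 tested, 7 were lower in CD4 Treg and 1 was higher, with a median log2 fold change of -1.42, and of 55 shorter ones 50 were lower, with a median of -2.55. Summed RPM was 2.85 times higher in CD49lo than in CD4 Treg for the long models and 5.20 times for the short ones. Most reads of the long models were from Hist1h1c. It held 4914 of 6607 and 3500 of 4803 in CD4 Treg, and 14561 of 23617 and 12532 of 17862 in CD49lo. RPKM divides by this length, so the level of a gene whose reads cover only part of a long model is understated, while the ratio of its RPKM between libraries is not affected.

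CD8 Treg was also well below CD49lo, on the strength of 1 library that the model assumes to vary like the others. Of 64 members tested 53 were lower in CD8 Treg than in CD49lo, against 3.65% of all genes tested (5.37% in either direction). In limma 0 were higher, against 1.71% of all genes, and 0 were at an unadjusted p under 0.05 or by limma-voom. The median log2 fold change was -2.37, that of all genes -0.04. In 64 of 66 members the CD8 Treg value lay below both CD49lo values, as for 51.2% of all genes tested. The largest differences were those of Hist1h2ad (-4.15 ± 0.43), Hist1h2ah (-4.06 ± 0.43) and Hist1h2bp (-3.83 ± 0.77), and the smallest among called members was that of Hist1h1c (-0.89 ± 0.14). Hist1h2ad was at 5.22 and 5.16 RPKM in CD4 Treg, at 2.13 in CD8 Treg, and at 56.6 and 44.7 in CD49lo, and Hist1h2ah at 5.17 and 8.17, 3.66, and 80.4 and 70.3. Both were lowest in CD8 Treg, on few reads. Hist1h2ad had 15 and 13 reads in CD4 Treg and 6 in CD8 Treg, and Hist1h2ah 13 and 18, and 9. Hist1h2bp had 2 reads in CD8 Treg. Other genes share 67.1%, 90.7% and 44.1% of the 50-base stretches of Hist1h2ad, Hist1h2ah and Hist1h2bp, so these single values are uncertain. By class, 5 of 5 H1, 13 of 18 H2A, 15 of 17 H2B, 10 of 11 H3 and 10 of 13 H4 genes were lower. All 28 in the main Hist1 block were, and 17 of 23 in the other, 4 of 8 in Hist2, and 2 of 3 in Hist3. Without CD49lo replicate 1 or 2, 1 CD8 Treg library was compared with 1 CD49lo library, and the spread came from the 2 CD4 Treg libraries alone. Those fits cannot show how far either compared group varies, so only their median log2 fold changes are given here, -2.24 and -2.58. Without CD4 Treg replicate 2 the median was -2.37, but fewer members were called. With a constant prior limma called 0 (60 lower at an unadjusted p under 0.05), with a minimum of 1 RPKM across all libraries of some group 31, and with no filter beyond 1 read 10 (29 when genes with no residual spread were left out). Markers of other cell types also differed in this comparison: 6 of 13 dendritic cell genes were lower in CD8 Treg, with a median log2 fold change of -1.85. Their summed level was 291 RPM in CD8 Treg and 820 and 854 in CD49lo, with Clec9a and Clec10a at 0 in CD8 Treg. Lower in CD8 Treg were also 2 of 6 plasma cell, 2 of 12 myeloid, 1 of 17 B cell, 1 of 9 erythroid and platelet and 1 of 12 natural killer cell genes, and 1 natural killer cell gene was higher. Their part in the result was not tested.

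Between the Treg populations few histone genes differed, and in both directions. Of 64 members tested 11 were higher in CD8 Treg, against 8.51% of all genes tested, and 2 were lower, against 8.35% (16.9% in either direction), so that the share called in either direction was near that of all genes. The median log2 fold change, CD8 Treg minus CD4 Treg, was 0.23, that of all genes 0.02. The CD8 Treg value was above both CD4 Treg values in 30 members, between them in 16 and below both in 20. Beside Hist1h4m, the higher members included Hist1h2ap (2.47 ± 0.53), Hist1h2bm (1.52 ± 0.31), Hist1h2af (1.42 ± 0.17), Hist1h3b (1.07 ± 0.25) and Hist1h1b (1.04 ± 0.21). Those genes were also among the steepest between CD4 Treg and CD49lo, and the comparisons share the CD4 Treg libraries. The Hist1h2ap value rests on 2 and 1 reads in CD4 Treg and 14 in CD8 Treg, and 93.1% of its 50-base stretches are shared with Hist1h2ao. Hist3h2ba was lower in CD8 Treg (-2.09 ± 0.38), and so was Hist1h2al, on 4, 4 and 0 reads, where the fitted value of -2.21 depends on the added 0.5. These counts were unstable: 3 members were called higher without CD4 Treg replicate 1 and 3 without replicate 2, and without CD49lo replicate 1 or 2 limma called 0 (10 and 10 higher at an unadjusted p under 0.05, and 18 and 20 called when genes with no residual spread were left out). With no filter beyond 1 read 1 was called higher (2 when such genes were left out), with the 1 RPKM filter 3, with a constant prior 4, and by limma-voom 3. The CD8 Treg library also had 6.86% of its reads in Gm26917, a predicted gene, against 3.33% to 4.16% in the other libraries, and 15 of 17 B cell and 11 of 12 myeloid genes were higher there than in CD4 Treg. The part of these differences in the result was not tested.

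Most mRNAs for factors that make and process histone mRNA did not pass the test, unlike most histone members. Of 28 tested genes for histone mRNA transcription, processing and decay, 3 were lower and 1 was higher in CD4 Treg than in CD49lo. Of all genes tested 12.8% were lower and 9.41% higher. The median log2 fold change of the 28 was -0.03. Slbp, the stem-loop binding protein, was at 29.5 and 28.8 RPKM in CD4 Treg, at 32.5 in CD8 Treg, and at 55.2 and 51.2 in CD49lo. Its log2 fold change was -0.83 ± 0.14 against CD49lo in CD4 Treg (adjusted p = 0.00196 by limma) and -0.57 ± 0.17 in CD8 Treg (adjusted p = 0.0890). Snrpe, an Sm ring protein, changed by -0.79 and Xrn1, a 5′ exonuclease, by -0.45 in CD4 Treg. Npat, the coactivator at histone loci, was at 3.96 and 4.64 RPKM in CD4 Treg, at 3.21 in CD8 Treg, and at 6.36 and 5.55 in CD49lo, and did not pass (adjusted p = 0.185). The octamer-binding factor gene Pou2f2 was 0.52 higher in CD4 Treg than in CD49lo and lower in CD8 Treg, with a log2 fold change of -1.51 ± 0.18 against CD49lo. It stood at 20.8 and 17.1 RPKM in CD4 Treg, at 3.95 in CD8 Treg, and at 14.1 and 12.5 in CD49lo.

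Among histone chaperones, 6 of 25 were lower in CD4 Treg than in CD49lo and 3 in CD8 Treg. The shares of all genes tested were 12.8% and 3.65%. Asf1b, a replication-linked H3 and H4 chaperone, was at 2.16 and 3.49 RPKM in CD4 Treg, at 2.21 in CD8 Treg, and at 18.4 and 12.2 in CD49lo. Chaf1a, a subunit of chromatin assembly factor 1, was at 2.29 and 1.94, 2.54, and 16.5 and 8.15 RPKM. Their log2 fold changes in CD4 Treg were -2.22 ± 0.35 and -2.19 ± 0.34. Hat1, which acetylates new H4, changed by -0.87, while Hira, the chaperone of replication-independent H3, changed by -0.29 and did not pass (adjusted p = 0.539 by limma).

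The replication-independent histones were measured in the same libraries. Of 9 tested, 5 were lower and 1 was higher in CD4 Treg than in CD49lo, with a median log2 fold change of -0.39. The shares of all genes tested were 12.8% lower and 9.41% higher. H3f3b was at 169 and 180 RPKM in CD4 Treg, at 109 in CD8 Treg, and at 193 and 204 in CD49lo, and did not pass in CD4 Treg (log2 fold change -0.16, adjusted p = 0.291 by limma). H3f3a, its paralog, was at 114 and 119, 126, and 149 and 172 RPKM, a log2 fold change of -0.43. H2afz was at 208 and 203, 204, and 275 and 261 RPKM, a log2 fold change of -0.36. In CD4 Treg these 3 thus differed by less than any called member did. H2afx, which can be expressed from both stem-loop and polyadenylated mRNA, was at 25.3 and 25.1 RPKM in CD4 Treg, at 39.3 in CD8 Treg, and at 157 and 121 in CD49lo, a log2 fold change of -2.40 ± 0.16 and near the members' median. Cenpa, the centromeric H3, changed by -1.31. H1f0, a linker histone of nondividing cells, was higher in CD4 Treg (0.87 ± 0.21), at 16.8 and 16.5 RPKM, 4.03 in CD8 Treg, and 9.58 and 8.46 in CD49lo. In CD8 Treg 4 of the 9 were lower than in CD49lo and 0 were higher, with a median log2 fold change of -0.72. The shares of all genes tested were 3.65% lower and 1.71% higher. H3f3b was among the 4, at -0.72 ± 0.12 (adjusted p = 0.00882 by limma).

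Genes of S phase and mitosis moved in the same direction as the histones. Of 26 S phase genes 25 were lower in CD4 Treg and 10 in CD8 Treg than in CD49lo, with medians of -1.58 and -1.13. All 20 mitosis genes were lower in CD4 Treg and 15 in CD8 Treg, with medians of -3.22 and -2.05. Of all genes tested 12.8% were lower in CD4 Treg and 3.65% in CD8 Treg. Rrm2, the small subunit of ribonucleotide reductase, was at 2.50 and 3.02 RPKM in CD4 Treg, at 5.93 in CD8 Treg, and at 32.0 and 21.5 in CD49lo. Uhrf1, which binds newly replicated DNA, was at 4.81 and 2.97, 7.12, and 32.6 and 25.4 RPKM. For both genes the CD8 Treg value lay above CD4 Treg and well below CD49lo. Summed, the S phase genes held 834 and 911 RPM in CD4 Treg, 927 in CD8 Treg, and 2124 and 1592 in CD49lo, and the mitosis genes 124 and 128, 314, and 2007 and 1265. CD49lo exceeded CD4 Treg 2.13-fold for S phase and 12.96-fold for mitosis, with the histone members at 4.31-fold between them. In CD8 Treg 8 of 20 mitosis genes and 1 of 26 S phase genes, Cdt1, were higher than in CD4 Treg. The share of all genes tested was 8.51%. CD49lo replicate 1 was above replicate 2 in both sums, as it was for the summed histone members.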

How the data were processed

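RNA was measured in 5 libraries. Per the submitters' processing notes CASAVA, STAR and the mm10 genome were used, without versions; library selection, strand, the counter and the handling of reads mapping to several genes are not given in the sources used here. The authors deposited RPKM, in a table presented as counts. Each RPKM times its gene length gave whole reads for 100% of values within 0.02. Values were scaled by TMM factors (0.935 to 1.038) and modelled as log2(RPKM + 0.5) in limma (3.58.1, under R 4.3.3), all 5 libraries in 3 groups, 2 residual degrees of freedom, a prior following mean log2 RPM, and Benjamini-Hochberg adjustment over 13298 genes with 10 reads at median depth in at least 1 library and 15 in total. Tests are two-sided; called means an adjusted p under 0.05. Sums were computed from recovered reads.

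Members and lists were chosen with earlier results of these data known. Genes named with values are the 3 highest per class, the 6 largest and 6 smallest called changes per comparison (some by range only), called genes against the majority, all of Hist2 to Hist4, and the smallest p per list; others, such as Npat, Hira, H3f3b and H2afz, were chosen after their values were seen. Of 66 members 64 matched GENCODE M21 by identifier, Hist1h2bh and Hist1h2bm by symbol. The fit was tested on simulated data.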

Additional observations from a re-analysis of the deposited data

How the results depend on the processing

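Every called member kept its sign under every alternative run, and the median log2 fold change of members ranged from -2.62 to -2.25 (CD4 Treg minus CD49lo), -2.58 to -2.24 (CD8 Treg minus CD49lo) and 0.13 to 0.30 (CD8 Treg minus CD4 Treg). Counts of calls moved more. Without 1 library at a time, members lower in CD4 Treg than CD49lo numbered 0 to 55 and higher 0, members lower in CD8 Treg than CD49lo 0 to 47, and members higher in CD8 Treg than CD4 Treg 0 to 3 and lower 0 to 2. With genes that had no residual spread left out, the fits without CD49lo replicate 1 or 2 gave 58 and 59 lower and 1 higher, 56 and 55 lower, and 18 to 20 higher and 4 to 6 lower. With no filter beyond 1 read, 29 were lower and 0 higher in CD4 Treg than CD49lo, 10 lower in CD8 Treg, and 1 higher and 0 lower in CD8 Treg than CD4 Treg; with genes of no residual spread left out, 53 were lower and 0 higher in CD4 Treg than CD49lo, 29 were lower in CD8 Treg than CD49lo, and 2 were higher and 1 lower than in CD4 Treg. With a filter of 1 RPKM in every library of a group 31 were lower in CD8 Treg than CD49lo and 3 higher than in CD4 Treg. With a constant prior limma called 0 lower in CD8 Treg than CD49lo, with 60 at an unadjusted p under 0.05 and 49 by limma-voom, and 4 higher than in CD4 Treg. For CD8 Treg minus CD4 Treg, limma-voom called 3 higher and 0 lower (2 at an unadjusted p under 0.05), a pseudocount of 2 called 1 lower, and no scaling called 4 lower. No scaling moved the median of all genes from -0.04 to -0.16 in CD8 Treg minus CD49lo. The causes were not tested. Leaving out the gene with the most reads changed the CD49lo to CD4 Treg ratio of summed RPM to 5.63 (H1), 6.92 (H2A), 8.65 (H3) and 3.48 (H4). With a replicate block for CD4 Treg and CD49lo 61 members were lower and 1 higher. Replicate differences of the 2 groups correlated at -0.02 across 13298 genes, which are not independent. With 2 libraries per group this cannot show whether samples of the same number came from the same animal, and the labels do not say. CD8 Treg has no replicate, and counts of few reads limit Hist1h2al, Hist1h2br, Hist1h1t and Hist1h2ap. In CD8 Treg they also limit Hist1h2ad, Hist1h2ah and Hist1h2bp. Members named in the text that were not called and lay within 2 standard errors of 0 were not recomputed one by one.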
